A study of Rattus norvegicus with 48 samples.

Results

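Genes of the respiratory chain that are encoded by the mitochondrial genome were followed across 5 groups of rat liver slices. They were taken as a list of 10 rat Ensembl identifiers, without use of their measured values. All 10 were found among the 32883 genes of the deposited count table, and all 10 passed the filter on low counts that left 14775 genes for testing. The list holds subunits of 4 enzyme complexes. Complex I is represented by mt-Nd1 (ENSRNOG00000030644), mt-Nd2 (ENSRNOG00000031033), mt-Nd3 (ENSRNOG00000033615), mt-Nd4 (ENSRNOG00000029707) and mt-Nd5 (ENSRNOG00000029971), complex III by mt-Cytb (ENSRNOG00000031766), and complex V by mt-Atp6 (ENSRNOG00000031979). Complex IV is represented by mt-Co1 (ENSRNOG00000034234), mt-Co2 (ENSRNOG00000030371) and mt-Co3 (ENSRNOG00000030700). The other protein-coding genes of the mitochondrial genome are not on the list.

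The respiratory chain of the inner mitochondrial membrane passes electrons from NADH and succinate to oxygen and uses the released energy to pump protons, and ATP synthase uses the proton gradient to make ATP. Most of its subunits are encoded in the nucleus, whereas a small set of core subunits is transcribed inside the organelle. That transcription starts at promoters in the control region and gives long transcripts from each strand of the circular genome. Transfer RNAs between the genes mark where these are cut into single messenger RNAs, whose levels then depend also on their stability. Hepatocytes are rich in mitochondria.

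The samples were precision-cut liver slices, which are thin living sections of liver kept in culture. There were 9 libraries of slices from sham-operated rats with vehicle (Sham_veh) and 10 of slices from bile duct-ligated rats with vehicle (BDL_veh). Ligation of the bile duct is a surgical model of cholestatic liver fibrosis. All other slices also came from ligated rats: 10 libraries had Sora, 10 had Nint and 9 had SB525334, which inhibits ALK5, the kinase receptor (type I) for TGF-beta. Sora and Nint are taken here as the kinase inhibitors sorafenib and nintedanib, which the labels do not spell out. The labels give neither doses, times in culture, strain nor age, nor which slices came from the same animal, so that p-values measure the spread between libraries, which may in part be technical.

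Total counts per library ranged from 12249470 to 29596987, and counts of the 10 genes from 1574 to 359936, so that counting error was small beside the spread between libraries. All 480 values of the 10 genes were whole numbers. Library 4 of the SB525334 group stood apart from the other 8 of its group, with the highest value of 9 of the genes by a wide gap. In the authors' quality metrics 20.85% of its alignments were not unique, against 9.85% to 16.7% in the other 8 libraries. Of those 8, libraries 1, 6 and 8 had the lowest values, at 9.85% to 11.3%. Results that rest on library 4 are given with and without it. The deposited sample sheet gives the SB525334 group another code in 9 of 9 libraries, and the label was followed.

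Summed over the 10 genes, mitochondrial messenger RNA made up the largest share of counts in slices given SB525334. The sum lay between 2.59% and 4.57% of all counts there, with a median of 2.95%. It lay between 1.79% and 2.23% in sham slices (mean 2.05% ± 0.127, SD, n = 9), between 1.66% and 1.90% in ligated vehicle slices (1.80% ± 0.0745, n = 10), between 1.89% and 2.16% with Sora (2.05% ± 0.0782, n = 10) and between 1.77% and 2.04% with Nint (1.90% ± 0.0891, n = 10). The SB525334 libraries thus did not overlap those of any other group in this share. In bulk slices, fewer cells of a type and less RNA per cell cannot be told apart in any of the values below.

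Levels are given as CPM (counts relative to the library total, scaled with TMM factors), which set libraries to a common level over most genes. Such factors matter here. Between ligated and sham vehicle slices the log2 fold changes of the 14775 genes tested had a median of -0.05 under TMM factors and of 0.30 if only total counts were used, and between SB525334 and vehicle it was 0.04 and -0.38. A gene's level is not compared with that of another gene, since no gene lengths were used.

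**Figure D1:**
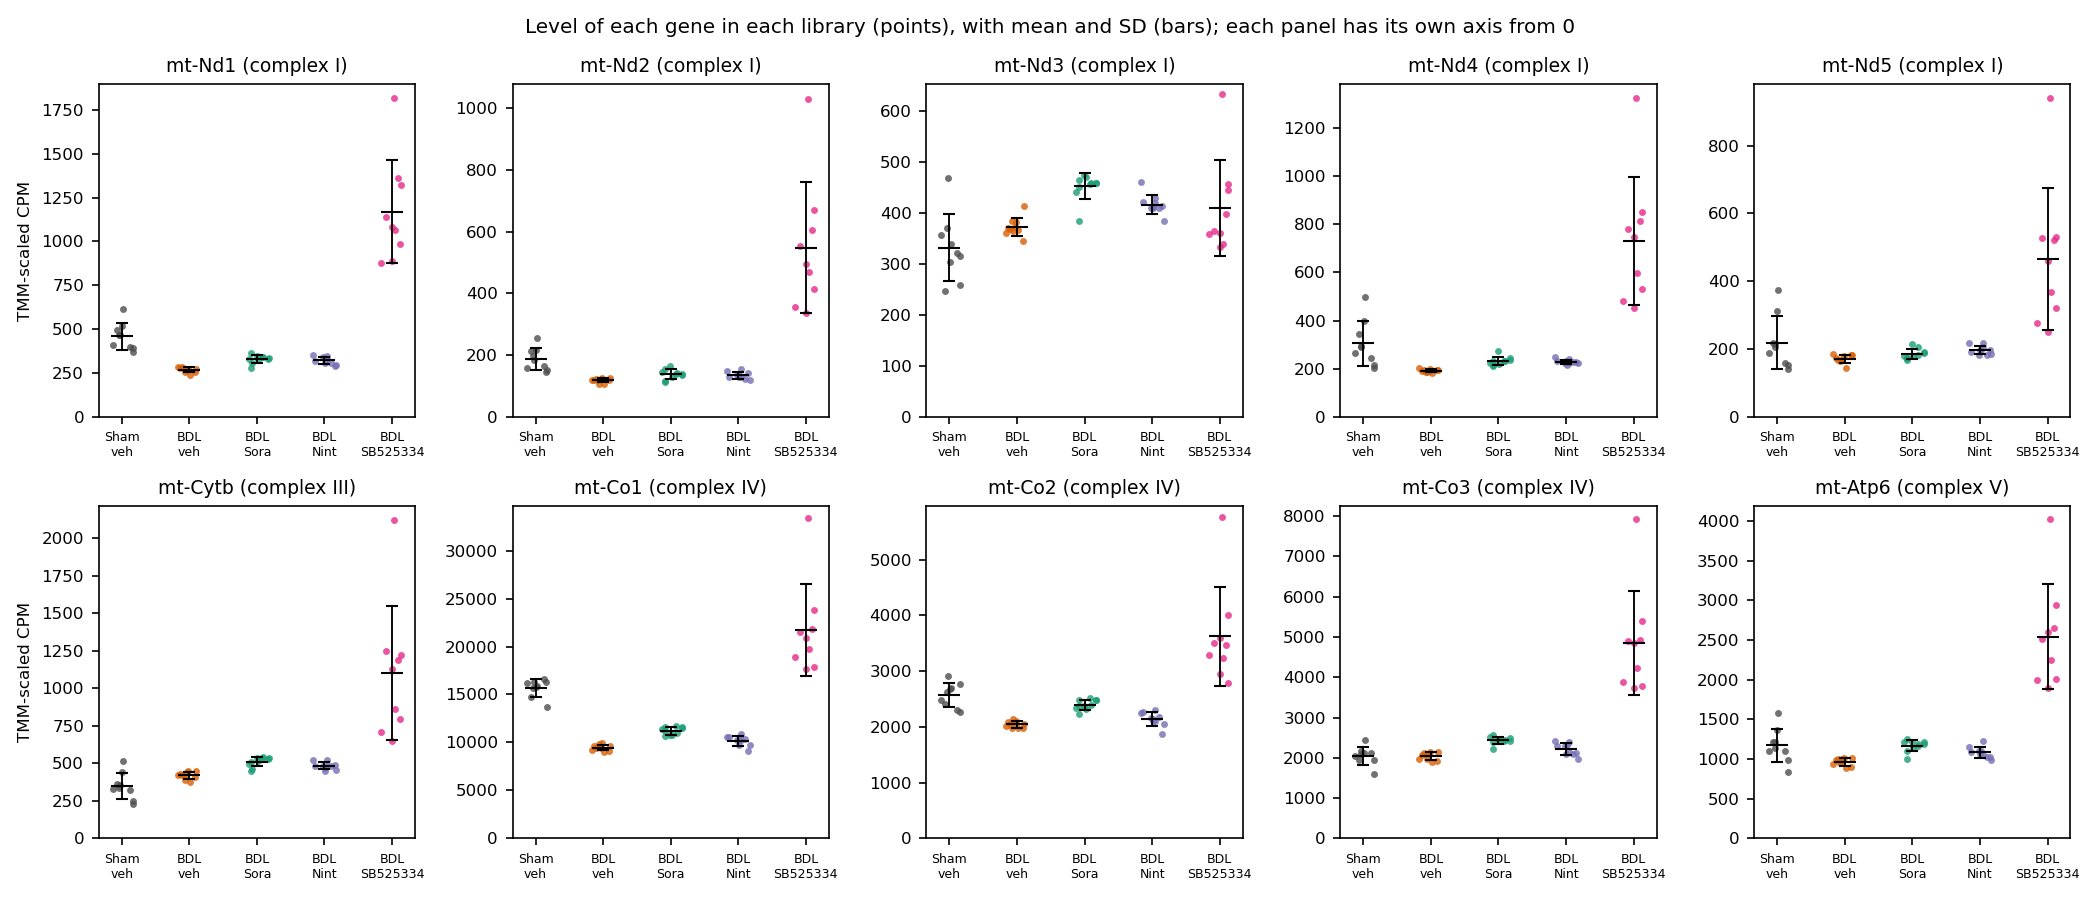
Level of each of the 10 genes in TMM-scaled CPM (vertical axis, from 0, with a scale of its own in each panel) in the 48 libraries of 5 groups. Points are libraries and bars are the mean and SD. In 9 of the 10 panels every SB525334 library lies above every ligated library of the other groups; the panel of mt-Nd3 is the exception, and library 4 of SB525334 is the highest point of its group in all 10.

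In slices from ligated rats, transcripts of 4 subunits of complexes I and IV were lower than in sham slices under each scaling tried, whereas those of mt-Co3, mt-Nd3 and mt-Cytb were not. The genes mt-Nd1, mt-Nd2, mt-Nd4 and mt-Co1 were 1.59 to 1.71 times lower. In the comparison of vehicle slices, 7 of the 10 genes were called lower and 0 higher by edgeR's quasi-likelihood test at an adjusted p under 0.05. Of all genes tested, 42.2% were called lower and 40.0% higher in the same comparison. The median log2 fold change was -0.34 over the 10 genes and -0.05 over all genes.

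Among subunits of complex I, mt-Nd1, a membrane subunit near the quinone site, had levels of 370, 465 and 612 CPM (lowest, median and highest of 9) in sham slices. In ligated slices its lowest, median and highest levels were 237, 271 and 286 CPM (n = 10). The 2 groups did not overlap in CPM, which held in the lower direction for 25.2% of all genes and for 5 of the 10. As a percentage of all counts, it held for 2 of the 10, mt-Nd1 and mt-Co1. The share of all genes on that measure was not computed. The log2 fold change of mt-Nd1 was -0.77 (SE 0.0881, edgeR quasi-likelihood adjusted p = 4.54e-11). The genes mt-Nd2 and mt-Nd4, which encode proton-pumping subunits of the membrane arm, likewise fell without overlap in CPM. For mt-Nd2 the range went from 146 to 257 CPM in sham slices and from 107 to 127 CPM in ligated ones (-0.67 ± 0.122 on the log2 scale, estimate and SE, adjusted p = 2.96e-06 by edgeR). For mt-Nd4 it went from 202 to 497 CPM and from 180 to 201 CPM (-0.67 ± 0.130 on the log2 scale, estimate and SE, adjusted p = 8.15e-06 by edgeR), so that the groups came close but did not overlap. The level of mt-Nd5, also a pump subunit, overlapped between groups, at 142 to 373 CPM in sham and 144 to 186 CPM in ligated slices. Its call was the least firm of the 7: the log2 fold change was -0.35 (SE 0.153, adjusted p = 0.0315 by edgeR), and the call was lost in 10 of 11 alternative analyses, with adjusted p values from 0.0465 to 0.990 over all 11.

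For mt-Nd3, a small subunit of complex I, levels went the other way, but not past the threshold in that fit. It had a lowest, median and highest level of 247, 321 and 469 CPM in sham slices and of 345, 370 and 413 CPM in ligated slices. The log2 fold change was 0.17 (SE 0.0850, adjusted p = 0.0637 by edgeR), with adjusted p values from 2.05e-07 to 0.0894 over 11 alternatives. For mt-Cytb, the catalytic cytochrome of complex III, levels were 232, 333 and 516 CPM in sham and 374, 423 and 450 CPM in ligated slices. Its log2 fold change was 0.27 (SE 0.129, adjusted p = 0.0519 by edgeR), with 8.86e-06 to 0.0607 over 11 alternatives. Both were called higher when scaled with RLE factors, by DESeq2, and on the authors' log2 CPM.

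Complex IV passes electrons to oxygen, and its 3 core subunits parted from each other. The gene mt-Co1, which encodes the catalytic subunit, had a lowest, median and highest level of 13679, 15880 and 16631 CPM in sham slices, against 9026, 9480 and 9905 CPM in ligated ones. The groups were far apart, with a log2 fold change of -0.73 (SE 0.0683, by edgeR an adjusted p = 1.17e-13). The level of mt-Co2, whose product receives electrons from cytochrome c, was 2265, 2618 and 2911 CPM in sham and 1974, 2046 and 2142 CPM in ligated slices. These did not overlap either, and the log2 fold change was -0.33 (SE 0.0727, adjusted p = 5.94e-05 by edgeR). For mt-Co3 the medians were nearly equal, at 2084 CPM in sham (range 1589 to 2438) and 2084 CPM in ligated slices (range 1887 to 2137), with a log2 fold change of -0.00 and a 95% interval from -0.16 to 0.16. The gene mt-Atp6, which encodes a subunit of the proton channel of ATP synthase, overlapped between groups at 840 to 1579 and 892 to 1016 CPM. It was called lower by 0.28 on the log2 scale (that is -0.28, with an SE of 0.0907 and p = 0.00417 after adjustment in edgeR). That call was lost with RLE factors, the filter of 5 CPM, plate column and DESeq2, where adjusted p values were 0.0533 to 0.0712, and with total counts (0.433).

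With total counts alone in place of TMM factors, mt-Nd1, mt-Nd2, mt-Nd4 and mt-Co1 stayed lower in ligated slices, with log2 fold changes of -0.42, -0.31, -0.32 and -0.38. With that scaling mt-Co2, mt-Atp6 and mt-Nd5 turned to 0.02, 0.07 and 0.00, none called, and mt-Co3, mt-Nd3 and mt-Cytb were called higher at 0.35, 0.52 and 0.62. Taken relative to the median of all genes, the median of the 10 was -0.30 under TMM factors and -0.29 under total counts. Of all genes called, 48.7% were higher with TMM factors and 66.1% with total counts.

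**Figure D2:**
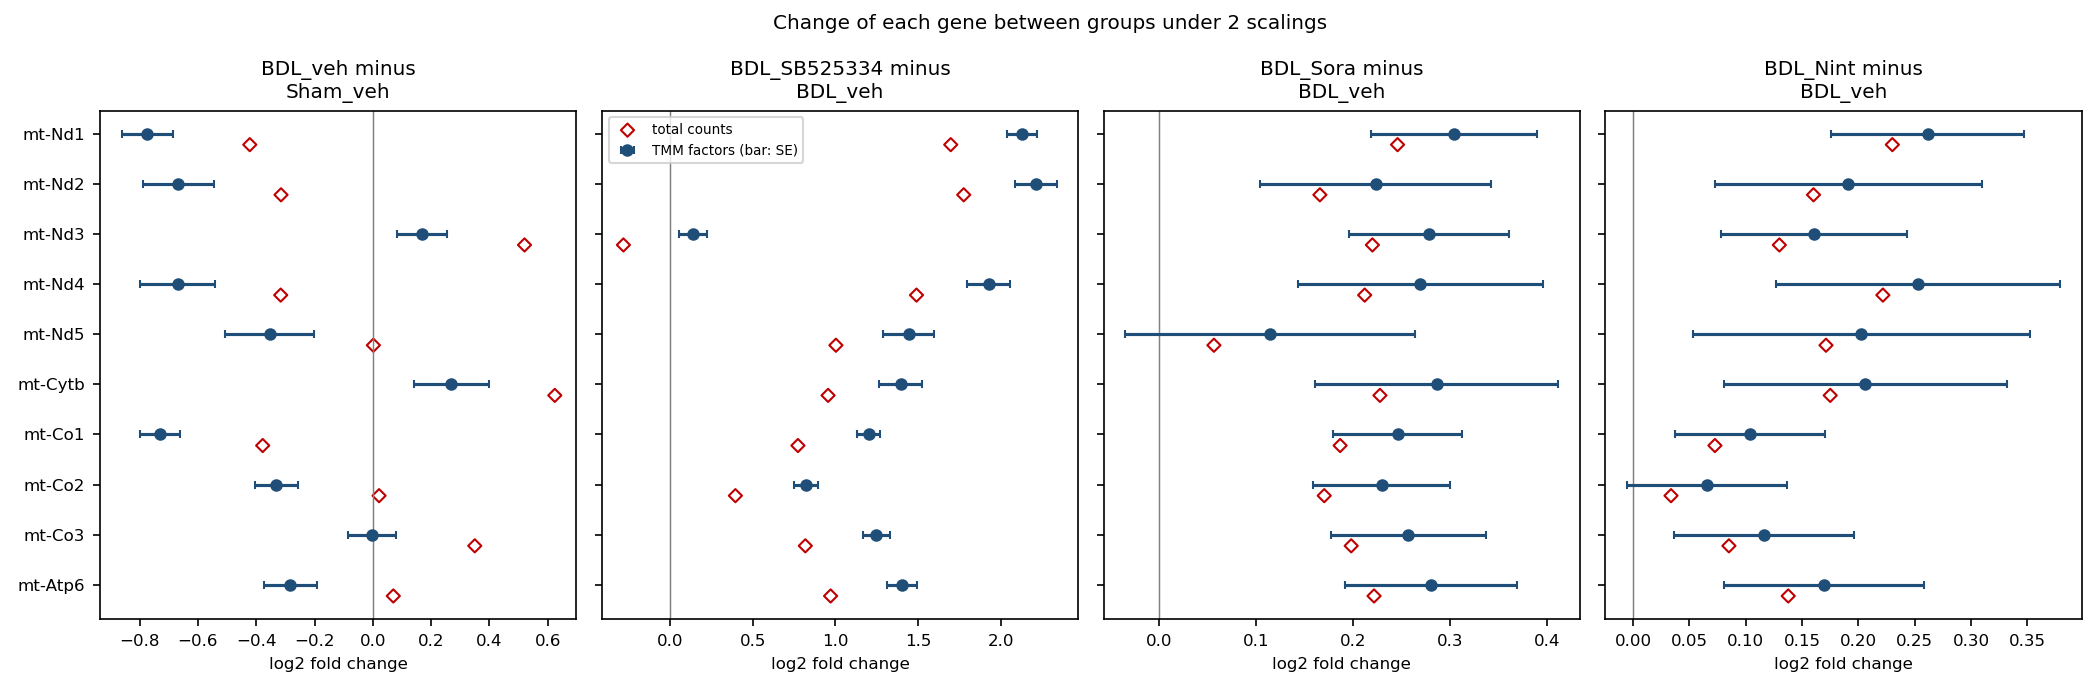
Log2 fold change (horizontal axis) of each gene in 4 comparisons between groups. Filled circles are TMM-scaled estimates with their SE and open diamonds the same fit with total counts alone. For ligated against sham slices, mt-Co2, mt-Co3, mt-Nd5 and mt-Atp6 change sign between scalings and the 4 genes farthest to the left do not. For SB525334 against vehicle only mt-Nd3 changes sign.

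The make-up of the mitochondrial pool does not depend on the scaling of libraries, since it is the share of each gene in the summed counts of the 10. It is given here as a description, with no test. Because the shares are parts of the same sum, a lower share of mt-Co1, the largest, raises the summed share of the others. A share can therefore move without a change in the level of that gene. For mt-Co3 the log2 fold change in level between ligated and sham vehicle slices was -0.00 under TMM factors. Under total counts it was 0.35 and called higher, so whether its level changed depends on the scaling. In sham slices mt-Co1 held 63.0% to 70.0% of the sum, and in the 4 groups of ligated slices it held from 56.6% to 60.7%. Conversely, mt-Co3 held 8.04% to 9.68% in sham slices and at least 11.97% in every ligated library, reaching 13.4%. The share of mt-Cytb was 1.06% to 2.05% in sham slices and 2.41% to 2.75% in ligated vehicle slices. In each of these 3 genes, the sham libraries did not overlap the libraries of any ligated group, whichever compound was given.

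Slices with SB525334 differed from other ligated slices in shares of other genes. There mt-Nd3 held 0.922% to 1.49% of the sum, against 2.23% to 2.52% with vehicle, 2.17% to 2.54% with Sora and 2.30% to 2.61% with Nint, and 1.11% to 1.91% in sham slices. The share of mt-Nd1 was 2.81% to 3.61% with SB525334 and at most 2.43% in every library of the other groups. As a result the ratio of mt-Nd1 to mt-Nd3 counts lay between 2.21 and 3.42 with SB525334, 0.994 and 2.001 in sham slices, 0.646 and 0.791 with vehicle, 0.623 and 0.800 with Sora, and 0.702 and 0.837 with Nint. The share of mt-Co2 was 9.17% to 10.6% with SB525334, below the 12.3% to 13.1% of ligated vehicle slices and over the lower part of the sham range of 9.72% to 11.8%. The level of mt-Co2 was nevertheless higher with SB525334 than with vehicle, at a log2 fold change of 0.82 under TMM factors.

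**Figure D3:**
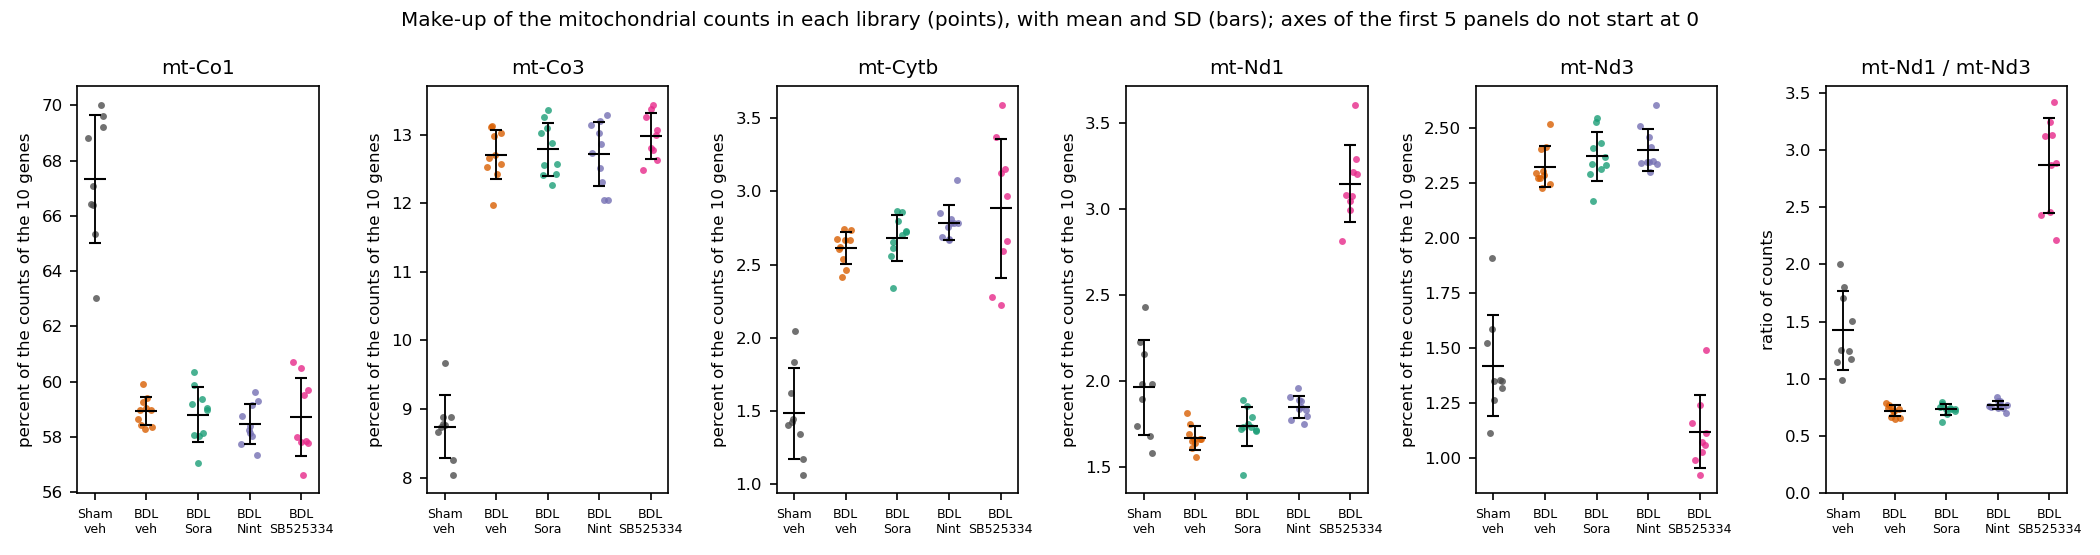
Share of 5 genes in the summed counts of the 10 genes (percent, vertical axis, not from 0) and the ratio of mt-Nd1 to mt-Nd3 counts (last panel, from 0), by library in 5 groups, with mean and SD. Sham libraries stand apart in mt-Co1, at 63.0% or more, and in mt-Co3, at 9.68% or less; SB525334 libraries stand apart in mt-Nd1, at 2.81% or more, and in the ratio, at 2.21 or more.

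In ligated slices given SB525334, 9 of the 10 genes rose against ligated vehicle slices and mt-Nd3 was not called. The 9 were called under each scaling tried, but the size of the rise moved with it: log2 fold changes ran from 0.82 (mt-Co2) to 2.21 (mt-Nd2) under TMM scaling and from 0.39 to 1.78 in the same genes under total counts. Of all genes tested, 38.2% were called higher in this comparison and 34.8% lower. The median log2 fold change of the 10 genes was 1.40, beside 0.04 over all genes. All 9 also had groups that did not overlap, which held in the higher direction for 18.5% of all genes.

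The rise was steepest in 3 subunits of complex I. Levels of mt-Nd2 were 338, 496 and 1031 CPM with SB525334 (lowest, median and highest of 9), against 107, 119 and 127 CPM with vehicle. Its log2 fold change was 2.21 (SE 0.125; edgeR quasi-likelihood adjusted p = 1.58e-20). The level of mt-Nd1 was 875, 1083 and 1817 CPM, so that even its lowest library was above the vehicle maximum of 286 CPM (2.13 ± 0.0905 on the log2 scale, estimate and SE, adjusted p = 3.92e-25 by edgeR). For mt-Nd4 it was 451, 745 and 1323 CPM, against a vehicle maximum of 201 CPM (1.93 ± 0.132 on the log2 scale, estimate and SE, adjusted p = 1.29e-17 by edgeR). Levels of mt-Nd5 were 249, 460 and 940 CPM, and the log2 fold change was 1.44 (SE 0.155, adjusted p = 2.01e-11 by edgeR).

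The fifth complex I gene, mt-Nd3, had 334, 366 and 633 CPM with SB525334, across the vehicle range of 345 to 413 CPM. Its log2 fold change was 0.14 (SE 0.0848, adjusted p = 0.136 by edgeR), with a 95% interval from -0.03 to 0.31. With total counts alone it was -0.28 and called lower (edgeR adjusted p = 0.00197). Relative to the median of all genes, its value was 0.10 under TMM scaling and 0.09 under total counts.

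Outside complex I, mt-Cytb had a lowest, median and highest level of 649, 1132 and 2122 CPM with SB525334, against a vehicle maximum of 450 CPM (1.39 ± 0.130 on the log2 scale, estimate and SE, adjusted p = 3.02e-13 by edgeR). In complex IV, mt-Co3 had 3738, 4843 and 7936 CPM and a log2 fold change of 1.25 (SE 0.0828, by edgeR an adjusted p = 3.17e-18). Levels of mt-Co1 were 17646, 20939 and 33432 CPM, with a log2 fold change of 1.20 (SE 0.0687, by edgeR an adjusted p = 1.88e-20). The rise of mt-Co2 was the smallest of the 9, at 0.82 (SE 0.0729; edgeR adjusted p = 5.11e-14), with levels of 2781, 3464 and 5765 CPM. The ATP synthase gene mt-Atp6 had 1896, 2517 and 4031 CPM, and its log2 fold change was 1.40 (SE 0.0918, adjusted p = 2.04e-18 by edgeR).

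All 9 genes called remained called without library 4 of the SB525334 group. Their log2 fold changes were then 2.05 for mt-Nd2, 2.03 for mt-Nd1, 1.77 for mt-Nd4, 1.25 for mt-Nd5, 1.22 for mt-Cytb, 1.13 for mt-Co3, 1.10 for mt-Co1, 0.71 for mt-Co2 and 1.29 for mt-Atp6. That of mt-Nd3 was 0.04 (edgeR adjusted p = 0.639). Of all genes called, 52.3% were higher with TMM factors and 24.5% with total counts. Libraries 1, 3, 4, 7 and 9 of SB525334 were in plate columns 1 and 2 as read from the library code, where no ligated vehicle library was. With plate column as a further term, 9 genes were called higher, beside 69.5% of all genes called in either direction. The median log2 fold change of the 10 was then 1.26, against 1.40 without that term. Without libraries 1, 6 and 8 of the SB525334 group, 9 were called higher, beside 73.5% of all genes called in either direction. That median was then 1.59. These libraries also had the lowest sums of the 10 genes in their group, at 31109, 29977 and 29169 CPM. Leaving them out was therefore bound to raise the median, so that the higher value is no check of the rise.

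The authors' quality metrics hold a measure of mitochondrial RNA of their own, the share of alignments with a mitochondrial source. It was 2.19% to 4.49% with SB525334, 1.33% to 1.54% with ligated vehicle, 1.54% to 1.86% with Sora, 1.37% to 1.64% with Nint and 2.02% to 2.46% in sham slices, so that ligated vehicle libraries were below sham ones and SB525334 ones above vehicle ones without overlap. Other metrics also differed between groups, though not always in the order of these levels. The share of alignments to mitochondrial ribosomal RNA was 0.79% to 2.06% with SB525334, 0.49% to 0.55% with vehicle, 0.50% to 0.70% with Sora, 0.49% to 0.65% with Nint and 0.88% to 1.10% in sham slices. Relative to the mitochondrial source, it averaged 41.5% with SB525334, 36.9% with vehicle, 35.7% with Sora, 36.1% with Nint and 44.5% in sham slices. The 2 shares come from the same libraries and are not independent measures. Alignments that were not unique made up 9.85% to 20.85% with SB525334, 8.10% to 8.89% with vehicle and 10.2% to 12.7% in sham slices. They made up 8.01% to 9.25% with Sora and 8.20% to 8.76% with Nint. Intronic sequence took 26.0% to 33.1% with SB525334, 33.7% to 36.8% with vehicle and 24.4% to 31.1% in sham slices. It took 31.4% to 34.9% with Sora and 34.3% to 36.4% with Nint. The part of these metrics in the results was not tested. The nuclear genome carries copies of mitochondrial sequence, and whether reads were shared with such copies was not tested. Markers of liver cell types were not analysed here, since the names of the genes in the table were not given in the sources used.

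**Figure D4:**
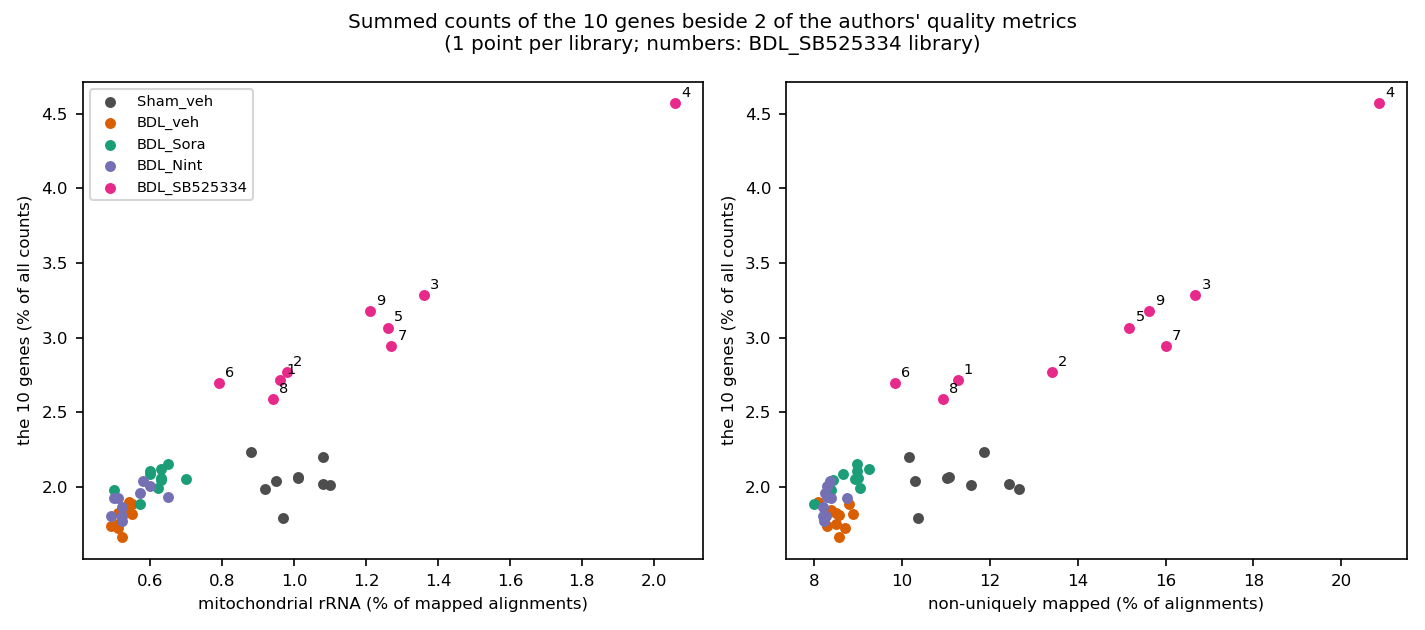
Summed counts of the 10 genes (percent of all counts, vertical axis) beside the share of alignments to mitochondrial ribosomal RNA (left, percent) and of alignments that were not unique (right, percent), 1 point per library in 5 groups; numbers name the SB525334 libraries. Library 4 is at the upper right of both panels, at 4.57%, 2.06% and 20.85%. The sham libraries have more mitochondrial ribosomal RNA than ligated vehicle libraries, at 0.88% or more against 0.55% or less.

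With Sora, levels in ligated slices were somewhat higher than with vehicle, by similar amounts in most of the 10 genes. Called higher were 6 of 10 and lower 0, beside 16.3% and 13.0% of all genes. The median log2 fold change was 0.26 over the 10 genes and 0.02 over all genes. The largest was that of mt-Nd1, with a lowest, median and highest level of 281, 335 and 364 CPM against 237, 271 and 286 CPM, which overlap slightly (log2 fold change 0.30, edgeR adjusted p = 0.00529). The levels of mt-Co1 did not overlap, at 10625, 11317 and 11717 CPM against a vehicle maximum of 9905 CPM (log2 fold change 0.25, edgeR adjusted p = 0.00355). The other genes called were mt-Co2 (0.23), mt-Atp6 (0.28), mt-Co3 (0.26) and mt-Nd3 (0.28), with edgeR adjusted p values from 0.00808 to 0.0129. In 5 genes, mt-Co1, mt-Co2, mt-Co3, mt-Cytb and mt-Nd4, the groups did not overlap in CPM, which held in the higher direction for 3.07% of all genes. As a percentage of all counts, only mt-Co1 did not overlap. The share of all genes on that measure was not computed. The 4 genes not called had log2 fold changes of 0.11 (mt-Nd5) to 0.29 (mt-Cytb) and edgeR adjusted p values of 0.0808 to 0.618. A column on a plate was read from the well-like part of the library code in the labels, which do not name it as such. With this column as a further term, 3 were called, beside 30.4% of all genes in either direction. The log2 fold changes of mt-Co2, mt-Atp6 and mt-Co3 were then 0.18, 0.20 and 0.20. None of the ligated vehicle libraries was in columns 1 and 2. When the 2 groups were fitted alone, 9 of the 10 genes were called higher, and 42.8% of all genes tested were called in either direction. Of all genes called, 55.7% were higher under TMM scaling, 44.8% under RLE and 38.1% under total counts.

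With Nint, 1 of the 10 genes was called against ligated vehicle slices. It was mt-Nd1, with 290, 323 and 351 CPM (lowest, median and highest), all above the vehicle maximum of 286 CPM. Its log2 fold change was 0.26 (SE 0.0857, adjusted p = 0.0194 by edgeR), and it was not called with plate column as a term or without libraries 3 and 6 of the vehicle group (adjusted p = 0.179 and 0.0566; range over 11 alternatives 2.43e-05 to 0.179). In the vehicle group, libraries 3 and 6 had the lowest percentages of counts in the 10 genes, at 1.66% and 1.73%. In summed CPM library 3 was the lowest, at 15189, but library 6 was not, at 16017. Leaving out low libraries of the vehicle group can of itself narrow this difference. Of all genes, 13.3% were called higher and 10.9% lower. The other 9 genes had log2 fold changes of 0.07 (mt-Co2) to 0.25 (mt-Nd4), and mt-Nd4 was the only other gene without overlap, at 216 to 247 CPM against 180 to 201 CPM. Groups not overlapping in the higher direction were seen for 3.36% of all genes. The fit shares its estimate of spread over all 48 libraries. When the 2 groups were fitted alone, 8 of the 10 genes were called higher, and 40.1% of all genes tested were called in either direction, against 24.3% in the fit of all libraries.

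No difference between Nint and Sora was called in the 10 genes, which shows no more than that none passed the threshold. Of all genes, 1.37% were called higher and 0.948% lower with Nint. Log2 fold changes of Nint over Sora ran from -0.16 (mt-Co2, 95% interval -0.30 to -0.03) to 0.09 (mt-Nd5, -0.20 to 0.38). Unadjusted p values were under 0.05 for 2 genes, mt-Co2 (0.0249) and mt-Co1 (0.0370), with edgeR adjusted values of 0.233 and 0.277. DESeq2 called 0. When the 2 groups were fitted alone, mt-Co1, mt-Co2 and mt-Co3, the core subunits of complex IV, were called lower with Nint, at -0.14, -0.16 and -0.14, and 11.3% of all genes tested were called in either direction. Of all genes called, 59.2% were higher with TMM factors and 78.4% with total counts. The doses are not given in the labels and may not match.

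Against Sora and against Nint, SB525334 gave higher levels of the same 9 genes and mt-Nd3 was not called in either. Of all genes, 36.1% were called higher and 36.3% lower against Sora, and 36.4% higher and 36.3% lower against Nint. The log2 fold changes against Sora went from 0.59 (mt-Co2) to 1.99 (mt-Nd2), and those against Nint from 0.76 (mt-Co2) to 2.02 (mt-Nd2). In all 9 genes the libraries did not overlap in CPM, which held in the higher direction for 17.2% of genes against Sora and 17.8% against Nint. This depends on the scaling. As a percentage of all counts, 6 genes did not overlap against Sora and 7 against Nint. The share of all genes on that measure was not computed. The difference for mt-Nd3 was -0.14 against Sora (95% interval -0.31 to 0.03; edgeR adjusted p = 0.136) and -0.02 against Nint (-0.19 to 0.15; edgeR adjusted p = 0.829). Without library 4 of the SB525334 group, mt-Nd3 was called lower against Sora. With total counts alone it was called lower against both, at -0.50 and -0.41. Of all genes called, 49.8% were higher against Sora and 50.1% against Nint with TMM factors, and 25.5% and 23.9% with total counts. These comparisons share the SB525334 libraries and so are not independent.

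Compared with sham slices, SB525334-treated ligated slices had higher levels of all 10 genes, beside 42.9% of all genes called higher and 38.4% lower. The log2 fold changes ran from 0.31 for mt-Nd3 (SE 0.0872; edgeR adjusted p = 0.00134) to 1.66 for mt-Cytb (SE 0.136; edgeR adjusted p = 1.71e-15). Those of mt-Nd1, mt-Nd2 and mt-Nd4 were 1.35, 1.55 and 1.26, and those of mt-Co1 and mt-Co2 were 0.47 and 0.49. In 6 genes (mt-Nd1, mt-Nd2, mt-Co1, mt-Co3, mt-Cytb and mt-Atp6) the groups did not overlap, which held in the higher direction for 23.6% of all genes.

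Ligated slices with Sora or Nint lay on both sides of sham slices. With Sora, 3 genes were called higher than in sham slices (mt-Co3 0.25, mt-Nd3 0.45 and mt-Cytb 0.56) and 4 lower (mt-Nd1 -0.47, mt-Nd2 -0.44, mt-Co1 -0.48 and mt-Nd4 -0.40), where 40.1% and 40.3% of all genes were called higher and lower. With Nint, 2 were called higher (mt-Nd3 0.33 and mt-Cytb 0.48) and 5 lower (mt-Nd1 -0.51, mt-Nd2 -0.48, mt-Co1 -0.63, mt-Co2 -0.27 and mt-Nd4 -0.42), where 40.0% and 40.9% of all genes were. In both comparisons mt-Nd1 and mt-Co1 lay below sham without overlap in CPM, as did 22.3% of all genes for Sora and 23.5% for Nint. As a percentage of all counts, 0 genes lay below sham without overlap for Sora and 1 for Nint. On that measure 2 and 3 lay above without overlap, and the share of all genes was not computed. With total counts, mt-Co2, mt-Atp6 and mt-Nd5 changed sign in both, though mt-Nd5 was called in neither. The calls were then 5 higher and 2 lower for Sora and 4 and 2 for Nint. The share of higher calls among all genes went from 49.9% to 65.9% and from 49.5% to 66.4%.

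Ordered by mean level in TMM-scaled CPM, 6 of the 10 genes (mt-Nd1, mt-Nd2, mt-Nd4, mt-Co1, mt-Co2 and mt-Atp6) had the sequence SB525334, sham, Sora, Nint and vehicle. In all but mt-Nd3, SB525334 was first and differed from its neighbour in that order. Sham differed from Sora in mt-Nd1, mt-Nd2, mt-Nd4 and mt-Co1, but not in mt-Co2 or mt-Atp6. Sora and Nint, neighbours in all 10 genes, did not differ beyond the threshold in any, and where Nint and vehicle were neighbours they differed only in mt-Nd1. For mt-Co3 the order was SB525334, Sora, Nint, sham and vehicle, and for mt-Nd5 it was SB525334, sham, Nint, Sora and vehicle, with no neighbours differing after the first. For mt-Cytb the order was SB525334, Sora, Nint, vehicle and sham, with no other neighbours differing. For mt-Nd3 it was Sora, Nint, SB525334, vehicle and sham, and no neighbours differed. The order depends on the scaling. As a percentage of all counts, sham came last in mt-Co2, mt-Atp6, mt-Co3 and mt-Nd5 as well as in mt-Cytb and mt-Nd3, Nint was ahead of Sora in mt-Nd4, and SB525334 fell behind vehicle in mt-Nd3.

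The 10 genes varied together between libraries, with mt-Nd3 the least so. The correlation of each gene's log2 level with the mean of the other genes across the 48 libraries was 0.868 to 0.994 for the other 9 genes and 0.185 for mt-Nd3. After each group's mean was subtracted it was 0.807 to 0.968 for those 9 and 0.557 for mt-Nd3. These correlations describe libraries that share scaling factors and depth, and library 4 of the SB525334 group enters all of them.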

How the data were processed

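RNA from rat liver slices was sequenced in 48 libraries, grouped by their labels. The deposited table holds expected counts per gene, not normalised. RSEM, which estimates them, edgeR and genome build Rnor_6.0 are named without versions, per the submitters' processing notes. The aligner, the annotation and whether counting used strand are, in the sources used here, not given. Overlapping and antisense genes can therefore not be told apart. A table of log2 CPM for 14418 genes and one of 172 quality metrics per library, in percent, counts and other scores, were also deposited by the authors. No pairing of the identifiers with gene names, no sequences and no gene lengths were used; names of the 10 genes follow the list of identifiers.

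Expected counts (8.02% of all values not whole at a tolerance of 1e-06) were rounded, filtered with filterByExpr by group and TMM-scaled. The two-sided quasi-likelihood test (robust glmQLFit, then glmQLFTest) in edgeR 4.0.16 under R 4.3.3 was fitted to all 48 libraries with 1 coefficient per group, over 10 comparisons, and p-values were adjusted by Benjamini-Hochberg over 14775 genes in each; genes under 0.05 are called. Standard errors come from the F statistic and intervals at the 95% level from them. The log2 levels for correlations used a prior count of 2. Total counts were 12249470 to 29596987 per library. No libraries of a group agreed within sampling noise (207 pairs, lowest chi-square per degree of freedom 3.94 over genes of at least 20 counts).

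All 10 genes are reported; the genes most like them were ranked by Pearson correlation with their mean level. The members, lists and tests were chosen with earlier results of these data known, though the measured values of the 10 genes were not used to choose them. Alternatives were RLE factors, total counts, DESeq2 1.42.0, no filter, 5 CPM in at least 9 libraries, the 2 groups alone, limma 3.58.1 with voom sample weights or on the authors' log2 CPM, the replicate number as a block, a plate column read from the library code, and libraries left out. Lists of nuclear respiratory genes and of cell type markers could not be applied without gene names.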

Additional observations from a re-analysis of the deposited data

Results flagged for a closer look

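In groups of 9 or 10 libraries, 12 of 55 sets of values had a library whose gap to the nearest other was large beside the range of the group (Dixon's criterion at the 95% level, by which chance alone gives about 1 in 20). Library 4 of the SB525334 group was the highest in 10 of the 12. Its levels, each followed by the next highest library, were 1031 and 672 CPM for mt-Nd2, 1323 and 849 CPM for mt-Nd4, and 940 and 531 CPM for mt-Nd5. For mt-Nd3 they were 633 and 458 CPM, for mt-Cytb 2122 and 1247 CPM, and for mt-Atp6 4031 and 2942 CPM. In complex IV they were 33432 and 23814 CPM for mt-Co1, 5765 and 4007 CPM for mt-Co2, and 7936 and 5388 CPM for mt-Co3. Summed over the 10 genes, the library had 4.57% of its counts, against 3.29% in the next. The values of the 10 genes in 1 library are not independent of each other.

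Library 3 of the Sora group was the lowest of its group in mt-Co3, at 2228 CPM against 2396 CPM in the next lowest, and in mt-Nd3, at 385 CPM against 442 CPM.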

How the results depend on the processing

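Of 1080 values of a gene in a comparison under an alternative, 997 were counted as unchanged. A further 52 newly passed the threshold, 22 no longer passed it and 9 changed direction, and the cause was not tested. Sign changes of genes called in neither fit are among the 997. An example is mt-Nd5 for Nint against sham, at -0.15 in the original fit and up to 0.17 over the alternatives. The 9 hold only genes called in the original fit, the alternative or both. All 9 came with total counts: mt-Co2 0.021, mt-Atp6 0.070, mt-Co3 0.35 and mt-Nd5 0.0019 for ligated against sham, mt-Nd3 -0.28 for SB525334 against vehicle, mt-Co2 0.19 and mt-Atp6 0.29 for Sora against sham, and mt-Co2 0.055 and mt-Atp6 0.21 for Nint against sham. The ratio of the summed levels of Sora over sham went from 0.818 in CPM to 1.002 as a percentage of all counts.

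For ligated against sham slices, genes called higher went from 0 to 2 with RLE factors, the filter of 5 CPM, the 2 groups alone, the authors' log2 CPM and DESeq2, to 3 with total counts, and to 1 with plate column, voom weights or without libraries 3 and 6 of the vehicle group; those called lower went from 7 to 4 with total counts, to 5 with RLE factors, the filter of 5 CPM, plate column and DESeq2, and to 6 with the 2 groups alone, voom weights, the authors' log2 CPM, the replicate block and without those libraries. Other counts that moved with total counts were 1 lower for SB525334 against vehicle, Sora and Nint, 5 higher and 2 lower for Sora against sham, and 4 higher and 2 lower for Nint against sham. For Sora against vehicle, plate column gave 3 higher, and the 2 groups alone and voom weights gave 9. In these fits 30.4%, 42.8% and 51.3% of all genes were called in either direction, against 29.3% in the original fit. For Nint against vehicle, 8 were higher in the 2 groups alone and with voom weights, and 0 with plate column or without libraries 3 and 6 of the vehicle group. In that order, these fits called 40.1%, 43.7%, 21.4% and 25.2% of all genes in either direction. The original fit called 24.3%. For SB525334 against Sora, 1 was lower (mt-Nd3) with the filter of 5 CPM, voom weights and the authors' log2 CPM. For Nint against Sora, 3 were lower in the 2 groups alone and with voom weights. These fits called 11.3% and 25.0% of all genes in either direction, against 2.32% in the original fit.

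Leaving out 1 library at a time gave 0 to 1 higher and 6 to 7 lower for ligated against sham, where libraries 1, 6, 8 and 9 of sham and 3 and 6 of vehicle each gave 1 higher, and libraries 1 and 9 of sham and 3 of vehicle each gave 6 lower. It gave 0 to 1 lower for SB525334 against Sora (1 without library 4 of SB525334). No other count changed. The replicate numbers did not pair libraries: deviations of same-numbered libraries correlated at 0.0236 on average over 93 pairs, and 6 of 48 libraries were closest to their own number. With the replicate block, genes called higher for ligated against sham went from 0 to 1 and no other count of calls moved by over 1.5 times. Precision is limited by the number of libraries, not by depth.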

Other observations

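Among the other tested genes, the level of ENSRNOG00000031053 followed the mean of the 10 genes most closely, with a Pearson correlation of 0.976 across 48 libraries and of 0.892 after each group's mean was subtracted. Its mean was 34.4 CPM in sham slices, 22.1 CPM in ligated vehicle slices, 26.4 CPM with Sora, 26.2 CPM with Nint and 85.5 CPM with SB525334. The next was ENSRNOG00000033299, with correlations of 0.963 and 0.871 and means of 139, 127, 152, 141 and 288 CPM in the same order. These identifiers are not paired with names in the sources used, so whether they are mitochondrial genes too was not established. The libraries share scaling factors and depth.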
